A study of Mus musculus with 10 samples.

Results

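The transcriptomes described here are those of lung tumors from KP control mice, taken alone as a baseline. All 5 libraries titled Control were used, of 10 libraries in the series, and the libraries of Glut1-deleted tumors entered no value below. The mice were on a C57BL/6 background and carried the KP alleles, among them p53Fl/Fl, that is, floxed copies of the tumor suppressor p53, and all 5 were labeled male. Their genotype label reads heterozygous fl/wt for Glut1, the design text calls these tumors Glut1-WT, and the study's methods allow either. Tumors were started by intratracheal Ad5CC10-Cre, an adenovirus whose promoter restricts Cre to CC10-positive airway cells, and were macrodissected 20 weeks and 1 day later. They were dissociated, depleted of immune cells with anti-CD45 beads, and their polyadenylated RNA was sequenced. No label states that the libraries came from separate animals, and the deposited names carry a second number, shared by replicates 1, 2 and 5 and different in replicates 3 and 4, whose meaning is not given (the name number below), so the spread between libraries may be a spread within animals.

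In the KP model, Cre switches on an oncogene and removes p53 in the same epithelial cell, and lung adenocarcinomas follow. Alveolar type 2 (AT2) cells make and secrete surfactant, whose proteins SP-A, SP-B, SP-C and SP-D are encoded by Sftpa1, Sftpb, Sftpc and Sftpd, whereas club cells line the bronchioles and secrete CC10, the product of Scgb1a1. Nkx2-1 is the transcription factor that both lineages require and is a standard marker of lung adenocarcinoma.

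Libraries held 40.1 to 49.8 M counts, with replicate 2 the deepest, and 20665 to 21455 genes with at least 1 count. Levels are given as TPM (counts divided by the merged exon length and rescaled to the same sum in each library) where genes are compared with each other and in the account of the gene lists, and as CPM (counts scaled by library size with the TMM method of edgeR) in the ranking by variability. A gene at the same CPM everywhere stood 1.25 times higher in TPM in replicate 2 than in replicate 1, and between 1.03 and 1.12 times higher in replicates 3 to 5, which bears on every order of libraries read from TPM. These are bulk samples, so that fewer cells of a type and less RNA per cell cannot be told apart.

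The 3 genes that mark these cells were present in every library. Sftpc (ENSMUSG00000022097, chromosome 14, 70520949 to 70524081, minus strand, GRCm38) stood at 58813, 22662, 107801, 51987 and 72362 TPM in replicates 1 to 5, and was the most abundant autosomal gene on average. Scgb1a1 (chromosome 19, 9083636 to 9087958, minus strand) stood at 54191, 11332, 16234, 48457 and 28469 TPM. Nkx2-1 (chromosome 12, 56531958 to 56536908, minus strand), the gene of a transcription factor, was far lower, at 137, 248, 213, 185 and 280 TPM. Replicate 2 was the lowest library for both secreted products but not for Nkx2-1, which was lowest in replicate 1.

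Genes of secreted lung proteins, translation factors and chaperones were among the most abundant. By mean TPM over the 5 libraries, Sftpc led with 62725 ± 31066 TPM (SD, n = 5), followed by Scgb1a1 with 31736 ± 19047 TPM, Sftpb with 26226 ± 3647 TPM, Clu with 16259 ± 8287 TPM and Lyz2 with 15284 ± 9464 TPM. Clu encodes the extracellular chaperone clusterin, and Lyz2 a lysozyme made by AT2 cells and macrophages. Places 6 to 10 went to Sftpa1, Eef1a1 (elongation of translation), Cxcl15 (a lung-restricted chemokine), Ltf (the iron-binding secretory protein lactoferrin) and AC123611.1. Places 11 to 20 went to Tpt1-ps3, Hsp90ab1 (a cytosolic chaperone), Wfdc2 (a secreted airway protein), Eef2 (translation), Cd74 (the invariant chain of MHC class II), Slc34a2 (the AT2 phosphate carrier), Spp1 (osteopontin), Gm10180, Scd1 (a fatty acid desaturase) and Krt18 (a keratin of simple epithelia). Of these 20 genes, 17 were annotated as protein coding. AC123611.1 and Gm10180 have exons of 80 and 78 bases, a length at which a value per base is unreliable, and Tpt1-ps3 and Gm10180 are annotated as processed pseudogenes, so their reads may belong to the parent genes.

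**Figure D1:**
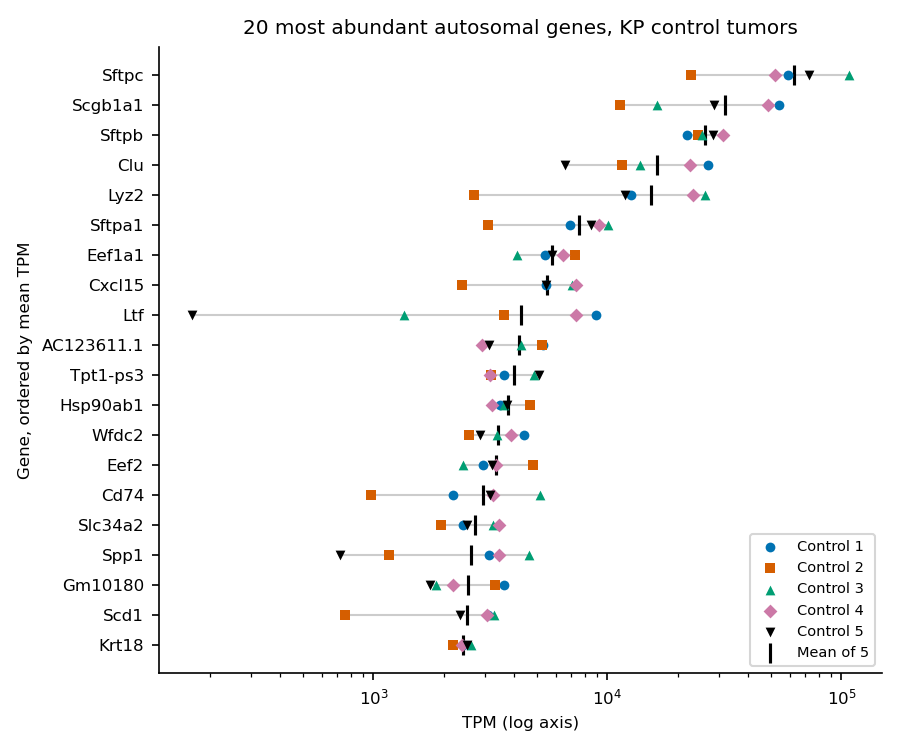
TPM on a log axis of the 20 autosomal genes with the highest mean TPM, 1 symbol per control library and a bar at the mean of 5. Sftpb, Hsp90ab1 and Krt18 are narrow, whereas Ltf spans from 167 to 8913 TPM. Control 2 is the lowest symbol for Sftpc, Scgb1a1, Lyz2, Sftpa1, Cxcl15, Wfdc2, Cd74, Slc34a2, Scd1 and Krt18.

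The head of the ranking was shared and its order was not. Sftpc was first in replicates 1, 3, 4 and 5 and second in replicate 2, where Sftpb was first. Sftpc, Scgb1a1, Sftpb, Clu, Lyz2, Sftpa1, Eef1a1, AC123611.1, Tpt1-ps3, Hsp90ab1 and Eef2, 11 of the 20, were among the 20 most abundant of every library. Ltf had the widest range of places, from 6 in replicate 1 to 879 in replicate 5, with 8913, 3619, 1350, 7361 and 167 TPM. Sftpb stayed within 21835 and 31230 TPM and between places 1 and 4. Its neighbor in function, Sftpc, covered a 4.76-fold range on that scale, and Lyz2 fell from place 2 in replicate 3 to place 19 in replicate 2, with 12566, 2684, 26184, 23130 and 11855 TPM.

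Abundance was also spread less evenly in some tumors than in others. The 5 leading genes of each library took 17.4%, 7.72%, 18.9%, 17.7% and 15.0% of its TPM in replicates 1 to 5. The number of genes that together held 50% of the counts was 965, 1277, 958, 931 and 1092. Between 79 and 95 genes reached 1000 TPM, with the most in replicate 2. Replicate 2 was the flattest of the 5 by each of these measures and replicate 5 the next.

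To rank genes by how much they differed between control tumors, the SD of log2 CPM over the 5 libraries was taken for 10547 autosomal protein-coding genes with a mean of at least 5 CPM. The ranking is a description of the same values that made it, and no test applies to it. The median SD was 0.25, about 1.19-fold, the 10th percentile 0.12 and the 90th 0.71. Counting alone would give a median SD of 0.04, and 38 genes (0.36%) had an SD below their own counting value. An SD above 1, a 2-fold spread, was found for 546 genes (5.18%) and above 2 for 87. With 5 libraries a single SD is loosely known, as its 95% interval runs from 0.60 to 2.87 times its value. SD and mean level were weakly related across genes (Spearman's rho -0.25 over 10547 genes, which are not independent replicates).

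**Figure D2:**
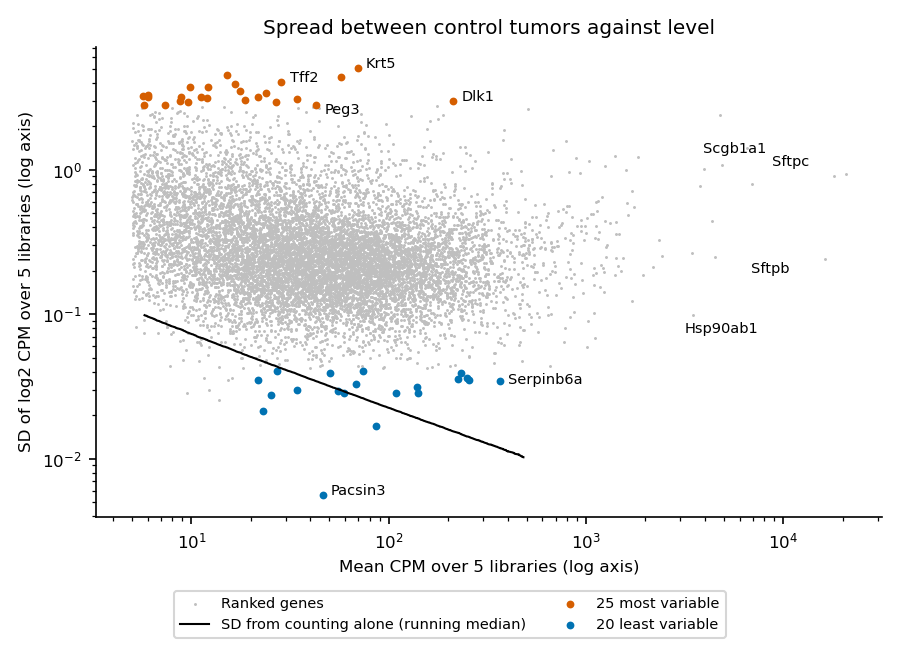
SD of log2 CPM over the 5 control libraries against mean CPM, both on log axes, for 10547 ranked genes (gray), with the 25 most variable (orange), the 20 least variable (blue) and the SD that counting alone gives (black line, running median). Most genes lie above the counting line, Krt5 is the highest point at 5.02, and Pacsin3 the lowest at 0.0056.

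The 25 most variable genes covered SDs from 2.78 to 5.02. The most variable was Krt5 (ENSMUSG00000061527, chromosome 15, 101707070 to 101712898, minus strand), the keratin of basal and squamous epithelium, at 348, 0.037, 0.321, 0.077 and 0.119 CPM in replicates 1 to 5. Replicate 1 was 1084-fold above the next library, which rested on 13 counts. Col17a1, a collagen that anchors basal cells to their matrix, stood at 75.6 CPM in replicate 1, at 0.148 and 0.026 CPM in replicates 3 and 4, and at 0 counts in replicates 2 and 5, which allows up to 0.056 and 0.072 CPM. Krt6a, Clca2, Dsg3 and Pkp1, also among the 25, had their highest value in the same library. The keratin gene Krt6a stood at 164 CPM in replicate 1 and 0.935 to 3.88 CPM elsewhere, the chloride channel regulator Clca2 at 116 CPM against 0.281 to 1.33 CPM, and the desmosomal genes Dsg3 and Pkp1 at 26.9 and 99.8 CPM against at most 1.31 and 14.4 CPM. Krt6a has close paralogs, so reads may be shared with them. Replicate 1 was the highest library for 11 of the 25 genes and for 24.4% of all ranked genes.

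Replicate 5 was the lowest library for 11 of the 25 and for 20.8% of all ranked genes. Tff2, a trefoil peptide of gastric mucus, stood at 38.2, 45.8, 43.2 and 15.6 CPM in replicates 1 to 4 and at 1 count in replicate 5. Its relative Tff3, the intestinal trefoil peptide, had its highest value there, at 0.076, 2.21, 1.19, 14.3 and 70.1 CPM in replicates 1 to 5. Otop3, a proton channel, stood at 8.17 to 31.4 CPM in replicates 1 to 4 and 0 counts in replicate 5, which allows up to 0.072 CPM, and F5, which encodes coagulation factor V, at 13.3 to 54.0 CPM against 0.143 CPM. The antimicrobial lectin Reg3g reached 38.1 CPM in replicate 3 and had 0 counts in replicate 5.

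Replicate 2 was the highest library for 7 of the 25 genes (28%) and for 32.3% of all ranked genes, so that its count is no higher than its share of all genes. Peg3 (chromosome 7, 6703892 to 6730431, minus strand), an imprinted zinc finger gene read from the paternal copy, stood at 3.33, 203, 2.42, 4.26 and 1.86 CPM, so that replicate 2 was 47.6-fold above the next. Sall1, a developmental zinc finger gene, stood at 52.9 CPM there and at 0.128 to 1.82 CPM elsewhere. Cym, which encodes the stomach protease chymosin, stood at 38.4 CPM against 0.119 to 5.87 CPM.

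Dlk1 (chromosome 12, 109452823 to 109463336, plus strand), an imprinted inhibitor of differentiation, stood at 47.0, 3.54, 27.2, 453 and 528 CPM. Ryr3, a calcium release channel, stood at 0.331 and 1.36 CPM in replicates 1 and 3 and at 26.3 to 34.3 CPM in the other three. Amph, Prtg and Snph had the same arrangement, with replicates 1 and 3 lowest. The remaining genes were Gm11808, Chi3l4 (a chitinase-like protein), Bpifb2, Sncg (gamma-synuclein), Lrrc66 and Wdr52 (lowest in replicate 2), with SDs from 2.81 to 4.41. Gm11808, at 222 CPM in replicate 4, is a predicted gene, and whether its reads are shared with near-identical copies was not tested. Just outside the 25 were Fbln2, Tmeff2, Fras1, Cd177 and Cpne4, with SDs from 2.69 to 2.75, close to 2.78 for Peg3, the last inside.

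**Figure D3:**
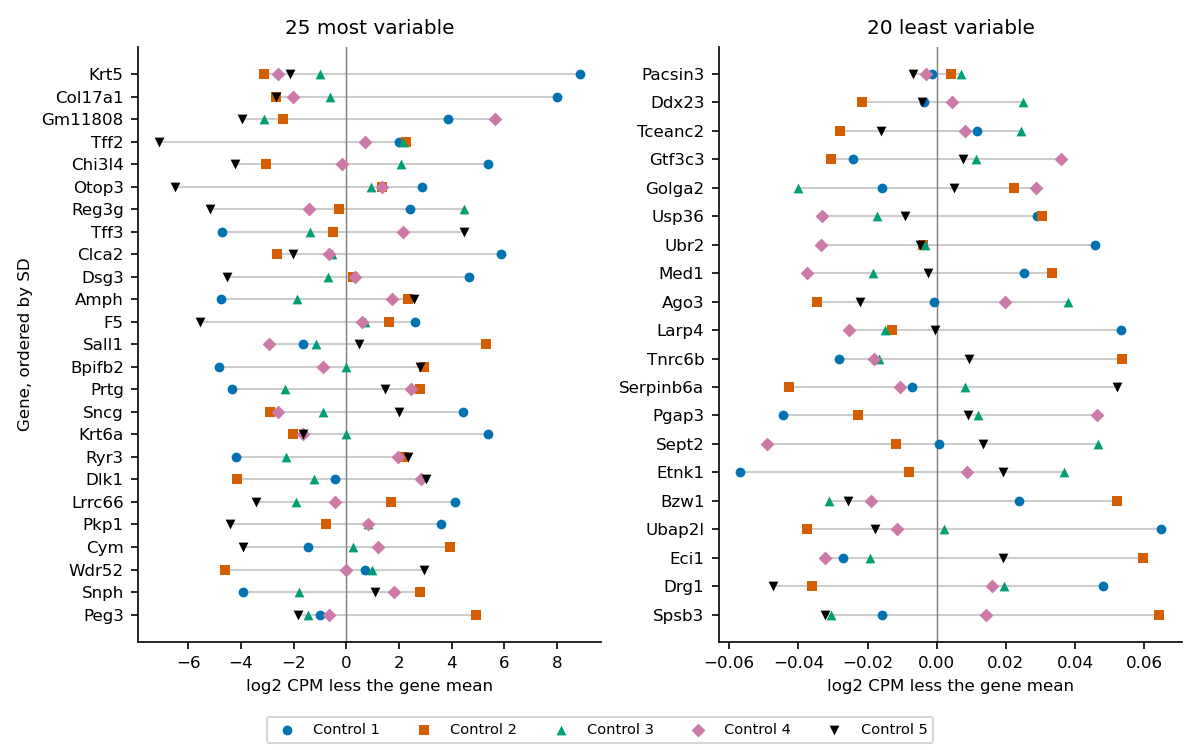
log2 CPM of each library less the mean of the gene over the 5 libraries, for the 25 most (left) and 20 least variable genes (right), 1 symbol per library. The axes differ in scale, as SDs run from 2.78 to 5.02 on the left and from 0.0056 to 0.04 on the right, and single symbols stand apart for Krt5 (control 1), Tff2 (control 5) and Peg3 (control 2).

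At the other end, the 20 least variable genes among the 7712 with a mean of at least 20 CPM had SDs from 0.0056 to 0.04. Of the 20, 9 had an SD below their counting value, so their order is not resolved at this depth. Pacsin3, a membrane-curving adaptor of endocytosis, stood at 46.2, 46.3, 46.4, 46.1 and 46.0 CPM (SD of log2 CPM 0.0056, counting value 0.033). With scaling by library totals its SD was 0.080, and none of the 20 genes remained in the set. Ddx23, an RNA helicase of the spliceosome, stood at 86.4, 85.3, 88.1, 86.9 and 86.4 CPM. Serpinb6a, a protease inhibitor and the most abundant of the 20, stood at 364, 355, 368, 363 and 379 CPM. Known for transcription or RNA control are Tceanc2, Gtf3c3 (a subunit of the RNA polymerase III factor TFIIIC), Med1 (Mediator), Ago3 and Tnrc6b (small RNA silencing) and Larp4. Known for protein turnover or traffic are Usp36 and Ubr2 (ubiquitin pathway), Golga2 (a Golgi matrix protein), Sept2 (a septin) and Pgap3 (maturation of lipid anchors). Etnk1, Bzw1, Ubap2l, Eci1, Drg1 and Spsb3 completed the set, whose highest SD was 0.04. The next 5, Hnrnpr, Kif1b, 0610011F06Rik, Arpc4 and Reep3, had SDs of 0.04 too, and no boundary separates the set from them.

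Among the abundant genes both kinds occurred. Of the 17 of the 20 most abundant that entered the ranking, 10 were in the top 10% by SD, which holds 10% of all ranked genes, and 1, Hsp90ab1, was in the bottom 10%. Sftpc had an SD of 0.93, Scgb1a1 1.08, Lyz2 1.42 and Ltf 2.39, whereas Sftpb had 0.24 and Krt18 0.21, both below the median of all genes. Abundance and variability were read from the same libraries, so no test was made.

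Sequences around the start site are printed for the ends of both rankings, to show what stands at the promoter of the genes named. RefSeq windows on GRCm38.p6, from 250 bases before to 50 after the annotated start, were found for 8467 of the 10547 ranked genes (80.3%). The letters TATAAA, the core of the TATA box that positions transcription of many tissue-specific genes, began 40 to 20 bases before the start on the same strand in 116 windows (1.37%), and lay anywhere on either strand in 6.78%. Of the 25 most variable genes 18 had a window (72%), and of the top 10% by SD 74.2%, which is too few for a comparison of sets, and none was made. Sftpa1 and Cxcl15 are shown because they are the abundant genes with these letters in that place, Chi3l4, Reg3g and Cym because they are the 3 of 18 most variable genes with them, and Krt5 and Pacsin3 because they have the highest and lowest SD. Capitals mark TATAAA where it began between 40 and 20 bases before the start. These windows are 300 bases long.
Sftpa1 (chr14:41131538-41131837, plus strand): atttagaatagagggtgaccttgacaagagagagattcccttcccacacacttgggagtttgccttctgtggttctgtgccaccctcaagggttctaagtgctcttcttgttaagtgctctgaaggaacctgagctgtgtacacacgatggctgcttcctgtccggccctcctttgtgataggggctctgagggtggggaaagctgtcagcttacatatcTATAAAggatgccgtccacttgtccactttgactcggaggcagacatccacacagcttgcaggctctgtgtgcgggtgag
Cxcl15 (chr5:90794284-90794583, plus strand): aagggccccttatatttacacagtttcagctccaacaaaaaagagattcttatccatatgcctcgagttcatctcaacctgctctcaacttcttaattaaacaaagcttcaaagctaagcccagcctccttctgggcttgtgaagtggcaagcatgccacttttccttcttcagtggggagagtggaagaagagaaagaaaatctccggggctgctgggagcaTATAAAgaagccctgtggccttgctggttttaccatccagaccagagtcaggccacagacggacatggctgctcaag
Chi3l4 (chr3:106219430-106219729, minus strand): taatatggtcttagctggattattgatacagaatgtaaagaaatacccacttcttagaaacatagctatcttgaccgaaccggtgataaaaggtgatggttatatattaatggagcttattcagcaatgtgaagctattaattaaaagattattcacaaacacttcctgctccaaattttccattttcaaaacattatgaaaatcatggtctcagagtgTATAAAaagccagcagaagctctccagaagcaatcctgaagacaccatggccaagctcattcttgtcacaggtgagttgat
Reg3g (chr6:78468825-78469124, minus strand): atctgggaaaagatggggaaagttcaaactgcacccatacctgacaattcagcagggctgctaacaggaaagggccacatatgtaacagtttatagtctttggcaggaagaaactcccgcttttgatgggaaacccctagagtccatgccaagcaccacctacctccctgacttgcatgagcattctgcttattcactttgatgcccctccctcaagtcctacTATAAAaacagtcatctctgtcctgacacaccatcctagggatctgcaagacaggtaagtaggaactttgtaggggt
Cym (chr3:107221683-107221982, minus strand): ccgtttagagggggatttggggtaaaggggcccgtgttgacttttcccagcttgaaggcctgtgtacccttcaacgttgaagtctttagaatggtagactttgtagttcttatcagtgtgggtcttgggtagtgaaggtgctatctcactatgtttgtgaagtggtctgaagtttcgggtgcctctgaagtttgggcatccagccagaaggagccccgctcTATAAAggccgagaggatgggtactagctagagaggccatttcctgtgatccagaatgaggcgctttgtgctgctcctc
Krt5 (chr15:101712856-101713155, minus strand): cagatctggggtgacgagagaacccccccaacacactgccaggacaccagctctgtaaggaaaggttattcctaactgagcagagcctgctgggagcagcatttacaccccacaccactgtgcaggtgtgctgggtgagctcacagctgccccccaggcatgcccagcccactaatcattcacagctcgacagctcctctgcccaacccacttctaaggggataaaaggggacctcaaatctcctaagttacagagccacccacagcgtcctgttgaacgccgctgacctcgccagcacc
Pacsin3 (chr2:91256563-91256862, plus strand): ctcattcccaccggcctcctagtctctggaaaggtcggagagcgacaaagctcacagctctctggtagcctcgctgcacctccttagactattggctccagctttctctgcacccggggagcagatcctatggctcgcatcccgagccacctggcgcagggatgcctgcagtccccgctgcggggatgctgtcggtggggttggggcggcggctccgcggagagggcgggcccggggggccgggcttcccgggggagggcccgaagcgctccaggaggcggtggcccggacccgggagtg
TATAAA began 30 bases before the start in Sftpa1, 27 in Cxcl15 and Reg3g, 31 in Chi3l4 and 29 in Cym. The letters are absent from that place in Krt5 and Pacsin3 and in the other abundant genes with a window, Sftpb, Lyz2, Eef1a1, Ltf, Wfdc2, Eef2, Slc34a2, Spp1 and Krt18, which says nothing about the factors that bind there. Only this exact spelling was marked, and in Eef2 it stood in the window closer to the start than that place. The GC content of the windows ran from 36.0% in Chi3l4 to 69.7% in Pacsin3.

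The spread was also read apart for the libraries of each name number, as a description only. The minimum of 5 CPM and the scaling were taken over all 5 libraries, and SD was weakly related to level. The readings below are thus not independent of each other, and an overlap above 10% is not taken as a repeat. Of the 1055 genes in the top 10% by SD over replicates 1, 2 and 5, 511 (48.4%) were also in the top 10% by difference between replicates 3 and 4, where 10% of all genes lie. Of the 1055 least variable genes of the first 3 libraries, 21 (1.99%) were in that top 10%. The median difference between replicates 3 and 4 was 0.72 on the log2 scale for the first set, 0.14 for the second and 0.19 for all ranked genes. Spearman's rho between the measures was 0.36 over 10547 genes, which are not independent replicates.

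Expression was compared between the name numbers with count tests. In the edgeR quasi-likelihood test of replicates 1, 2 and 5 against replicates 3 and 4, 0 of 16489 genes had an adjusted p under 0.05 (0% called), the lowest adjusted p was 0.999, and 375 genes (2.27%) had an unadjusted p under 0.05. DESeq2 called 60 of the same 16489 genes, 20 higher in replicates 1, 2 and 5 and 40 higher in replicates 3 and 4. The libraries that share a number may come from the same animal, so neither count bears on more than these 5 libraries. The smallest unadjusted p-values were those of Hddc3, Mst1 and Kbtbd11, higher in replicates 1, 2 and 5, and of Muc20, Gm10116 and Nkx6-1, higher in replicates 3 and 4. Muc20, a membrane mucin, averaged 44.0 CPM in replicates 1, 2 and 5 and 129.7 CPM in replicates 3 and 4 (log2 difference, first less second, -1.56 ± 0.17 SE, edgeR adjusted p = 0.999). Correlations of log2 CPM across genes lay between 0.866 for replicates 1 and 2, which share a number, and 0.947 for replicates 3 and 4, which share the other.

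Gene lists for cell types and processes put these genes in context. Of 28 lists, 24 had a median SD above that of all ranked genes, 0.25. A list is described by the number of its ranked members in the top 10% by SD, where 10% of all ranked genes lie, by its summed TPM and by the library in which members were highest or lowest. Over all ranked genes the highest library was replicate 1 for 24.4%, replicate 2 for 32.3%, replicate 3 for 17.4%, replicate 4 for 12.4% and replicate 5 for 13.5%. The lowest library was replicate 1 for 20.1%, replicate 2 for 28.6%, replicate 3 for 20.2%, replicate 4 for 10.3% and replicate 5 for 20.8%.

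The AT2 and surfactant genes were the largest list by level. Its 16 genes summed to 118516, 62212, 192551, 138112 and 138299 TPM in replicates 1 to 5 (129938 ± 46836, SD, n = 5). In log2 CPM all 16 were lowest in replicate 2, and 11 were highest in replicate 3. In the top 10% by SD were 8 of the 16, namely Sftpc, Sftpa1, Lamp3, Napsa, Cxcl15, Lyz2, Hc and Scd1, and the median SD was 0.63, which fell to 0.28 without replicate 2. Napsa, the protease that trims surfactant protein B, had the widest spread at 774, 119, 1577, 1237 and 883 TPM, whereas Abca3, the lipid pump of lamellar bodies, stayed between 440 and 614 TPM.

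Club cell genes had a higher median SD than AT2 genes, and did not share their highest library. The 13 genes summed to 63287, 15750, 25590, 57833 and 37296 TPM, with Scgb1a1 the largest part, and 11 of the 12 ranked were in the top 10% (median SD 1.31). Cyp2f2, a cytochrome P450 of club cells, stood at 1247, 393, 1833, 2016 and 2479.7 TPM. Cbr2, a carbonyl reductase, stood at 682, 79.0, 1891, 440 and 1422 TPM. Bpifa1, a secreted airway defense protein, was lowest in replicate 1, at 8.57, 503, 139, 128 and 625 TPM, where Scgb1a1 was highest. Scgb3a1 was highest in replicate 3 at 371 TPM and Scgb3a2 in replicate 5 at 342 TPM.

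Genes of multiciliated cells were lowest in replicate 2 for each of the 7 ranked members. The 10 genes summed to 249, 47.0, 380, 147 and 795 TPM, and all 7 ranked were in the top 10% (median SD 1.83, and 1.02 without replicate 2). Foxj1, the master regulator of motile cilia, stood at 28.5, 2.46, 17.3, 14.8 and 68.4 TPM, and Sec14l3 at 45.3, 9.11, 160, 30.5 and 311 TPM. Replicate 5 was highest for both.

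Of 11 transcription factors of lung lineage, none was in the top 10% and none in the bottom 10%, close to the share of all genes. The median SD was 0.29, above the 0.25 of all ranked genes, below that of the AT2 list with all 5 libraries but above it without replicate 2 (0.34 against 0.28), and the sum stayed between 1141 and 1436 TPM. Cebpa, a factor of AT2 maturation, had an SD of 0.16, Foxa2 0.18 and Nkx2-1 0.32, whereas Sox2, a factor of proximal airway, had 0.67.

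**Figure D4:**
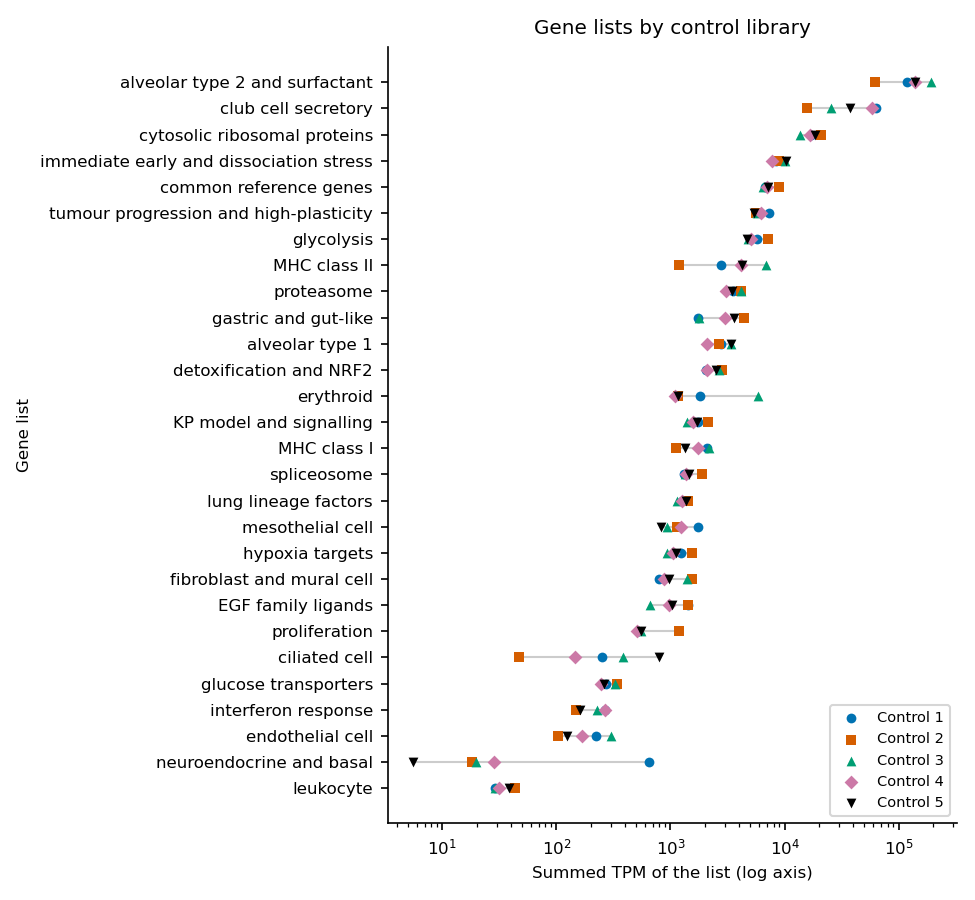
Summed TPM of each of 28 gene lists on a log axis, 1 symbol per control library, ordered by mean. Neuroendocrine and basal genes span from 5.59 to 652 TPM with control 1 far to the right, ciliated genes from 47.0 to 795 TPM, and lung lineage factors from 1141 to 1436 TPM.

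Of 8 neuroendocrine and basal genes, 3 reached the minimum of 5 CPM, Krt5, Trp63 and Krt14, and for Krt5 and Trp63 only through replicate 1. Trp63, the p63 transcription factor of basal and squamous cells, stood at 31.8, 0.450, 1.48, 2.21 and 1.11 TPM, and Krt14 at 151, 17.3, 16.4, 25.8 and 3.68 TPM. The neuroendocrine members Calca and Chga stayed at or below 0.313 TPM in all libraries.

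Genes of gastric and gut epithelium, which KP tumors can express when lung identity loosens, had 10 of 12 ranked members in the top 10% (median SD 1.26). Gkn2, a gastrokine of stomach mucus, was the most abundant, at 196, 3100.3, 503, 1663 and 2576 TPM. Tff1 moved otherwise, at 266, 98.5, 342, 288 and 39.7 TPM, and Vil1, the villin of brush borders, was lowest in replicate 1 at 17.5 TPM and stood at 31.9 to 107 TPM in the rest. Hnf4a, the gut factor, stood at 62.5, 160, 63.6, 89.5 and 92.1 TPM with an SD of 0.43. The intestinal factor Cdx2 was at or below 0.761 TPM.

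Among genes linked to tumor progression and plasticity, 8 of 20 ranked members were in the top 10%. Hmga2, a chromatin protein of advanced KP tumors, stood at 6.80, 1.33, 68.4, 16.3 and 6.62 TPM. The mesenchymal filament gene Vim, with the same highest library, stood at 40.3, 60.7, 330, 76.1 and 40.4 TPM, and Zeb1 at 1.95, 1.37, 6.44, 2.39 and 1.64 TPM. Stromal and endothelial cells express Vim and Zeb1 too, and 10 of 11 ranked endothelial genes had the same highest library, whose part in these values was not tested. Ly6a, which encodes the surface protein Sca-1, was high in replicates 1 and 4, at 1287 and 975 TPM against 170 to 455 TPM elsewhere. Krt8, Krt7 and Krt19, keratins of simple epithelia, and Cdh1, the gene of E-cadherin, had SDs of 0.33 to 0.47.

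MHC class II genes, which AT2 cells express, shared their highest and lowest library. All 7 were in the top 10% by SD (median 1.07, and 0.52 without replicate 2), all 7 highest in replicate 3 and all 7 lowest in replicate 2. H2-Aa stood at 184, 52.5, 503, 248 and 307 TPM and the regulator Ciita at 6.57, 4.36, 16.1, 12.7 and 12.8 TPM. Of 9 ranked MHC class I genes 5 were in the top 10%, B2m among them at 786, 283, 873, 621 and 395 TPM.

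Markers of cells other than epithelium were read in the same way. Leukocyte genes summed to 28.8 to 43.5 TPM over 16 genes, with Ptprc, which encodes the CD45 targeted by the depletion, at 0.400 to 0.542 TPM and Cd3e and Marco below 0.1 TPM. Mrc1, a macrophage receptor, was the 1 leukocyte gene that entered the ranking, and it was highest in replicate 2 at 16.5 TPM. Endothelial genes summed to 223, 102, 303, 167 and 124 TPM, with 9 of 11 ranked members in the top 10%, 10 of them highest in replicate 3 and 10 lowest in replicate 2. Hemoglobin genes put the erythroid sum at 1826, 1157, 5869, 1086 and 1160 TPM, with Hba-a1 and Hba-a2 near-identical copies. Of 10 ranked fibroblast and mural genes, 4 were highest in replicate 2, near the share of all genes, and 8 lowest in replicate 4, and the fibrillar collagen gene Col1a1 was in both counts, at 65.5 and 11.1 TPM. Replicate 3, the highest in AT2 and MHC class II genes, was so also in endothelial and erythroid genes, and replicate 2 the lowest in AT2 and endothelial genes, and the part of cell mixture in these values was not tested.

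Cell cycle genes stood apart in replicate 2. All 20 were highest there in log2 CPM, with a summed 1184 TPM against 504 to 550 TPM in the other four, and 1, the mitotic kinase Aurka, reached the top 10% at 15.7, 50.3, 13.7, 12.8 and 13.1 TPM. The median SD of the list was 0.52, and 0.20 without replicate 2, where the median of all ranked genes was 0.20 too.

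Glucose use was described by its enzymes and carriers. Glycolysis genes had a median SD of 0.37, with the lactate exporter Slc16a3 in the top 10% and Aldoa and Gpi1 in the bottom 10%. Slc2a1, the gene of Glut1, stood at 99.4, 91.5, 80.4, 89.9 and 68.3 TPM (85.9 ± 11.9, SD, n = 5) with an SD of log2 CPM of 0.27. In CPM it stood at 119, 87.3, 92.6, 104 and 72.5, so that replicate 5 was lowest and replicate 1 highest on both scales, while replicate 2 was above replicates 3 and 4 in TPM and below them in CPM. Slc2a3, the gene of Glut3, had nearly the same mean, 85.0 ± 38.6 TPM, but a wider spread, at 53.3, 119, 130, 42.9 and 79.9 TPM (SD of log2 CPM 0.63). Among the hypoxia targets, 4 of 12 were in the top 10%, led by Car9, an acid-base enzyme induced by HIF, at 71.0, 53.3, 9.89, 6.19 and 1.4 TPM. Vegfa, a classic target of the same factor, was in the bottom 10%, at 263 to 345 TPM.

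Of 15 KP driver and signaling genes none was in the top 10% by SD, close to the share of all genes, and the median SD of 0.32 was above that of all genes. Trp53 stood at 3.97 to 6.15 TPM and its targets Mdm2 and Cdkn1a had SDs of 0.12 and 0.17. The ERK feedback gene Dusp6 ran from 261 to 580 TPM with an SD of 0.32. Of the EGF family ligands 4 of 8 were in the top 10%, namely Ereg, Epgn, Egf and Nrg1, while Areg, the most abundant, stood at 423 to 1002 TPM.

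The 4 lists with a median SD below that of all ranked genes were spliceosome, ribosomal, proteasome and common reference genes. Without replicate 2 the proteasome and reference genes, at 0.23 and 0.21, moved above the median of all ranked genes, so that 26 of the 28 lists lay above it, and without replicate 5 the reference genes did so, at 0.26. Without replicate 1 the lung lineage factors, at 0.23, lay below the median of all ranked genes, 0.24. None of 20 spliceosome genes was in the top 10% and 4, Ddx23, Prpf8, Sf3b1 and U2af2, were in the bottom 10% (median SD 0.16). None of 26 proteasome genes was in the top 10% and 1, Psma4, was in the bottom 10%, and among ribosomal protein genes Rpl13 was in the top and Rpl8 in the bottom 10%. Of 14 ranked genes in common use as references, B2m and Ppia were in the top 10%. Actb had an SD of 0.12, and Gapdh 0.70 at 30.2 to 93.7 TPM. Gapdh and Ppia have many processed copies in the mouse genome, and how reads shared with them were counted was not tested. Early response genes of dissociation, such as Fos at 1316 to 1928 TPM, were high in all libraries with a median SD of 0.29.

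Finally, the genes of each autosome were read together. For each library the log2 difference from the median of the other 4 was taken per gene, less the library's own median over all genes, and the median over a chromosome was read for 95 pairs of chromosome and library. In 18 pairs it was 0.2 or more in size, and in all 18 the genes before and after the chromosome's median gene start both gave the same sign and more than 0.1. The pairs were chosen by the median over these same genes, so this agreement is partly built in and is no separate support. Chromosome 12, with 368 ranked genes, shifted in 4 of the 5 libraries, by -0.44 in replicate 1, 0.38 in replicate 2, -0.31 in replicate 4 and 0.32 in replicate 5. In replicate 1, 89.4% of its genes lay below the median of the other 4 libraries after this centering, and in replicate 5, 88.3% lay above it. It also had the highest median SD of any autosome, 0.35, and the fewest genes in the bottom 10%, 1.09%. Chromosome 19 was higher in replicate 4 by 0.33, with 91.8% of 389 genes above. Replicate 2 held 9 of the 18 pairs, upward on chromosomes 2, 5, 10, 12, 17 and 18 and downward on 7, 15 and 16. Without replicate 2 the count was 10, among fewer pairs, since its own pairs were left out. The count of 4 libraries for chromosome 12 also depends on the libraries compared. Its value in replicate 3, 0.07 with all 5, was 0.23 without replicate 2 and 0.24 without replicate 5. The same value was -0.11 without replicate 1 and -0.10 without replicate 4. Because each library is set against the other 4, the values of a chromosome are not independent of each other. DNA copy number was not measured here, and its part in these shifts was not tested. Nkx2-1 and Dlk1 lie on chromosome 12, and the relation of their values to its shifts was not tested. Nkx2-1 was lowest in replicate 1, where the chromosome was down, and highest in replicate 5, where the chromosome was up. Dlk1 was lowest in replicate 2 and highest in replicate 5, and the chromosome was up in both.

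**Figure D5:**
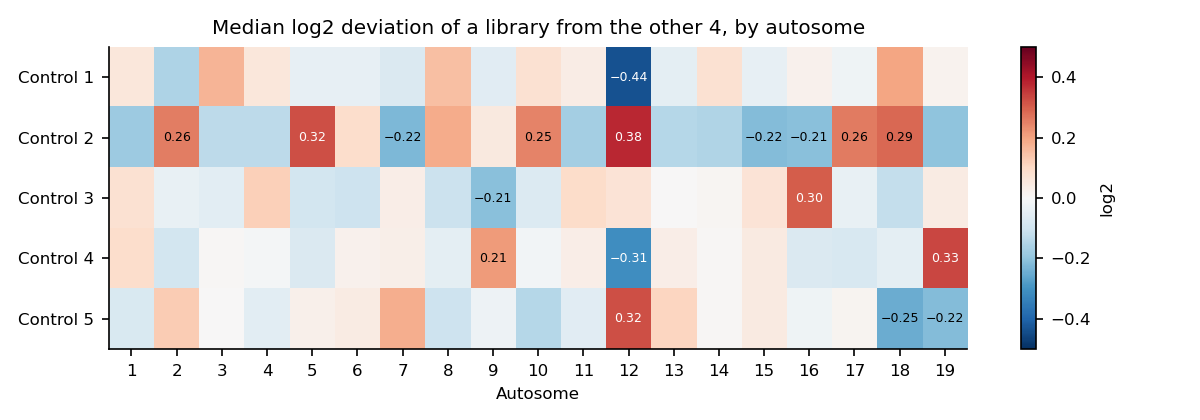
Median log2 deviation of each control library from the median of the other 4, by autosome, after removing the library's genome-wide median. Printed values are those of 0.2 or more in size, and chromosome 12 is shifted in 4 of the 5 libraries, down in controls 1 and 4 and up in controls 2 and 5.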

How the data were processed

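RNA from the CD45-negative fraction of macrodissected KP tumors was sequenced after poly(A) selection (TruSeq stranded mRNA). Per the submitters' processing notes the tools were bcl2fastq 2.17, cutadapt 1.4.2, HISAT2, featureCounts 1.4.4 and edgeR, on build mm10. The use of strand in counting is not given in the sources used here. The authors deposited raw counts per Ensembl gene for 39017 genes, 1 library per file, and a combined table whose 5 control columns equaled those files. GENCODE M21 on GRCm38 gave positions, biotypes and merged exon lengths for 37607 genes (96.4%). The 37 mitochondrial genes had 0 counts and were not analysed here. Autosomes only were ranked.

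TPM was computed from counts and merged exon lengths, and TMM-scaled CPM and log2 CPM (prior count 2) with edgeR 4.0.16 in R 4.3.3. Variability is the SD of log2 CPM over the 5 libraries, set beside the SD that Poisson counting of the observed counts gives. Such counting values, and floors (3 counts), cover counting error only. The name number contrast used the edgeR quasi-likelihood test after filterByExpr, with Benjamini-Hochberg adjustment over 16489 genes and a threshold of 0.05, and DESeq2 1.42.0 as an alternative. The scripts were tested on simulated data. P-values measure the spread between these libraries only, which may be technical.

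Named genes are the 20 autosomal genes highest by mean TPM, the 25 protein-coding genes with the highest SD (mean of at least 5 CPM), the 20 with the lowest (at least 20 CPM), the 3 smallest p-values in each direction of the contrast, and members of 28 gene lists. The members and lists were chosen with earlier results of these data known, and the lists were written by hand. Levels of list members that entered no top or bottom 10% are named as examples, and the chromosome description and its alternatives were added after the data were seen. Scaling, filter, prior count, measure, exon length and leaving out each library were the alternatives tried. Some genes of these lists, and an allele of the mice, are not reported here.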

Additional observations from a re-analysis of the deposited data

Results flagged for a closer look

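In groups of 5 libraries a value was singled out when its gap to the nearest other library exceeded 0.71 of the range. Of 99 sets of values examined, 13 did so. Chance singles out about 5 in 100 sets, a rate that does not apply to genes chosen for their spread over the same libraries, as most of these were, so the number is not read against it. Replicate 2 accounted for 6 of these, replicate 1 for 4 and replicate 5 for 3.

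In replicate 2 the total of 49.8 M counts was the highest, and so was the summed TPM of the proliferation list, at 10.21 on the log2 scale, and Peg3, at 7.66 log2 CPM. Sftpa1 at 11.24, Cxcl15 at 10.43 and Scd1 at 9.98 log2 CPM were lowest in the same library. In replicate 1 Krt5 at 8.44, Krt6a at 7.36, Clca2 at 6.86 and Col17a1 at 6.24 log2 CPM were highest. In replicate 5 Tff2 at -3.82, Otop3 at -4.42 and F5 at -2.40 log2 CPM were lowest, values that depend on the prior count because they rest on 0 to 6 counts. The relation of the larger total of replicate 2 to its other values was not tested.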

How the results depend on the processing

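Of 82 recomputed summary values, 63 stayed close to the reported one and 19 moved. Close is meant loosely, as sharing 17 of the 25 most variable or 15 of the 20 least variable genes was counted so. Of 668 other values, for single genes and lists, 34 moved, that is, an SD or its median left 0.60 to 2.87 times the reported value, or a TPM shifted by over 1 SD. Without replicate 2 the median SD of the list moved from 0.63 to 0.28 for AT2, from 1.83 to 1.02 for ciliated cell, from 1.07 to 0.52 for MHC class II, from 0.75 to 0.33 for MHC class I, from 0.95 to 0.44 for leukocyte (1 ranked gene) and from 0.52 to 0.20 for proliferation genes. It moved from 2.39 to 1.08 for neuroendocrine and basal genes without replicate 1, from 1.07 to 0.27 for erythroid genes without replicate 3, and from 0.77 to 0.41 for mesothelial genes without replicate 5. Without their extreme library the SDs of Krt5, Col17a1, Clca2 and Krt6a (replicate 1) fell to between 0.89 and 1.02, those of Tff2, Otop3 and F5 (replicate 5) to between 0.72 and 0.95, and those of Sall1, Wdr52 and Peg3 (replicate 2) to between 0.51 and 1.4. The rest were the TPM of Krt18 with the longest transcript as length, and SDs of 12 of the 20 least variable genes under library totals or without 1 library. With library totals the SDs of all 20 were higher, at 0.045 to 0.12, also where they stayed within those bounds. Of the 25 most variable genes, 9 were shared when the minimum was 20 CPM, 14 when the coefficient of variation replaced the SD, and 11 to 22 when 1 library was left out, with 11 without replicate 1 and 14 without replicate 5. Of the 20 least variable genes, 0 were shared with scaling by library totals, 0 with no minimum, 3 with the SD after a trend on the mean, 12 with edgeR's dispersion per gene, and 4 to 10 when 1 library was left out, so that this set depends on each of those choices. Of the 1055 genes in the top 10% by SD, 524 were shared at a minimum of 1 CPM, 449 at 20 CPM and 291 with no minimum, where fewer or more genes were ranked. Of the 20 most abundant genes, 13 were shared when CPM replaced TPM. The name number contrast gave 0 calls with edgeR under each alternative, including those that left an arm with a lone library, assumed to vary like the rest, and 60 with DESeq2, and the cause was not tested. Chromosome shifts, whose alternatives were chosen after seeing the data, numbered 18 with DESeq2 size factors, 19 with library totals and 19 at 20 CPM. When 1 library was left out, which leaves fewer pairs to count, they numbered 10 to 18, the 10 without replicate 2. No paired analysis was possible because only 1 group of libraries was used. With 5 libraries, an SD is known within 0.60 to 2.87 times its value.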

Other observations

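The neighbors of the imprinted genes among the most variable were read after the values of those genes had been seen, and are given as values only. Dlk1 is expressed from the paternal copy of a domain on chromosome 12 whose noncoding RNAs Meg3, Rian and Mirg are read from the maternal copy. Meg3 (109541001 to 109571726, plus strand, GRCm38) stood at 365, 881, 1126, 776 and 853 CPM in replicates 1 to 5 and Rian at 214, 769, 542, 571 and 777 CPM, so that both were abundant and had replicate 1 as the lowest library. Mirg, at 8.02 to 28.5 CPM, had the same lowest library. Dlk1, at 47.0, 3.54, 27.2, 453 and 528 CPM, followed another order, with replicate 2 lowest. SDs of log2 CPM were 0.62 for Meg3, 0.76 for Rian and 0.73 for Mirg, against 3.01 for Dlk1. The paternally expressed Rtl1 of the same domain had 0 to 17 counts per library, too few to read.

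Beside Peg3 on chromosome 7, the imprinted genes Zim1 and Usp29 were low but had the same highest library. Zim1 had 203 counts in replicate 2 and 0 to 8 elsewhere. Usp29 had 19 counts in replicate 2 and 0 in the other four.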
